A study of Mus musculus with 6 samples.

Results

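Orphan CpG islands are stretches of closely spaced CpG sites that lie away from the annotated starts of genes. Here they were built from the autosomal CpGs that had at least 10 reads, summed over 2 replicates, in each of 3 pluripotent mouse cell types. A CpG was a member when at least 10 other such CpGs lay within 100 bp of it on either side and when it was over 5 kb from every transcription start in GENCODE. Members within 300 bp of each other were joined into an island. The rule found 16415 CpGs in 1257 islands among 1073684 compared autosomal CpGs, so that orphan islands held 1.53% of them and 5.11% of the compared CpGs over 5 kb from a start. Dense CpGs were far more often near starts, where 450185 CpGs met the same density minimum and formed 12971 stretches, and the 1257 islands were 8.83% of all 14228 dense stretches. The rule used position and read depth and no methylation level.

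Methylation was measured by reduced representation bisulfite sequencing (RRBS), which cuts genomic DNA with MspI at CCGG, keeps short fragments, and reads unconverted cytosines as methylated. C-iPSCs were induced pluripotent stem cells made from mouse OG2-MEFs, embryonic fibroblasts from mice of C57BL/6J, CBA/CaJ, and 129S4/SvJaeJ background, with small-molecule cocktails that began with VPA, CHIR99021, tranylcypromine, Forskolin, AM580, EPZ004777, and a further compound. A later medium of this route also held DZNep and 5-Aza-2′-deoxycytidine, an inhibitor of DNA methyltransferases, before the cells were moved to the medium with 2i and LIF. 4F-iPSCs were made from OG2-MEFs with retroviruses carrying Oct4, Sox2, Klf4, and c-Myc, which integrate into the genome. mESCs were of the established embryonic stem cell line E14. All cells were labelled male and were kept in serum medium with 1000 U/ml of LIF and with 2i, a pair of inhibitors of GSK3 (CHIR99021, at 3 μM) and MEK (PD0325901, at 1 μM). The feeder cells were removed before collection. Both iPSC types were at passages 5 to 10 and mESCs at passages 20 to 30, so that passage, genetic background, and origin cannot be told apart between mESCs and either iPSC type. There were 2 libraries per cell type, and nothing says whether they came from separate cultures or lines, so the spread between them may be technical.

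In mammalian genomes most CpGs are methylated and sparse, while CpG islands are usually free of methylation. Islands at gene starts belong to promoters. Orphan islands lie within or between genes, some act as starts of unannotated transcripts or as enhancers, others sit in repeats or in the coding sequence of GC-rich exons, and they gain methylation during development more often than promoter islands do. A methylation level is the share of reads that kept a cytosine, averaged over all cells and both alleles of a culture.

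The islands on which the comparisons turned are shown as reference sequence of GRCm38 (mm10), plus strand, 5′ to 3′, with the compared CpGs in capitals. The first is a stretch of coding exon of Chst13, a chondroitin sulfotransferase gene, at chr6:90309623-90309753, and the next a stretch in an intron of Ica1, which encodes an islet autoantigen, at chr6:8728877-8728994. Then come an intronic stretch of the potassium channel gene Kcnh1 at chr1:192471244-192471340 and a coding stretch of Dpt, the gene for the extracellular matrix protein dermatopontin, at chr1:164823156-164823246. These 4 were lowest in mESCs and highest in 4F-iPSCs. The coding stretch of the KRAB zinc finger gene Zfp30 at chr7:29793004-29793262 was lowest in C-iPSCs. The last, 22486 bp from a start of the actin gene Actb, at chr5:142929240-142929356, was almost unmethylated in all 3 cell types.
Chst13: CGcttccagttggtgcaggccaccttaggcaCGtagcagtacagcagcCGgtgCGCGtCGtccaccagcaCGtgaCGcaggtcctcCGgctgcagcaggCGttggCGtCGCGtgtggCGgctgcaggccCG
Ica1: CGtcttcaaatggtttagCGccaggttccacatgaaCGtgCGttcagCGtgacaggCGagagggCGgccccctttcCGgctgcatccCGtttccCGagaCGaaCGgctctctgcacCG
Kcnh1: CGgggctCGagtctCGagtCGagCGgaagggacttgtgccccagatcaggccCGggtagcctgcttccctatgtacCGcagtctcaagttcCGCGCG
Dpt: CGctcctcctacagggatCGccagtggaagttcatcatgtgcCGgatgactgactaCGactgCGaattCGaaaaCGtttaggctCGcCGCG
Zfp30: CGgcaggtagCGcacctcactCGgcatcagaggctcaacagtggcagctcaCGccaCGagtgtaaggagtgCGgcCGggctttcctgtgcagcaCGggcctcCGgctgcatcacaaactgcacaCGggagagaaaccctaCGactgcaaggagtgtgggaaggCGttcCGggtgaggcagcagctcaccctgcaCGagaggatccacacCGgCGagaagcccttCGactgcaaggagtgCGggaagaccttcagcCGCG
nearest start Actb: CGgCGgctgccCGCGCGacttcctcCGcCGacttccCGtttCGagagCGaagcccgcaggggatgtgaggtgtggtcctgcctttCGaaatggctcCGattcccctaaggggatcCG
The Ica1, Dpt, Kcnh1, Chst13, and Zfp30 stretches held between 1 and 4 CCGG sites in the printed bases and the Actb stretch none. In the Actb stretch 13 of 14 CpGs were compared, and in the others every CpG was.

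The 6 libraries held between 53694199 and 96534037 reads on CpGs, with mESC replicate 2 the shallowest. At the orphan islands, the median island had 112 reads per CpG for mESCs, 146 for C-iPSCs, and 159 for 4F-iPSCs with replicates summed. Island levels of the 2 replicates differed by medians of 1.99 (mESCs), 2.79 (C-iPSCs), and 2.26 (4F-iPSCs) percentage points. The second replicate was higher on average by 2.30, 3.65, and 0.771 points, respectively. The promoters of Nanog, Pou5f1, Zfp42, and Dppa3, which are kept largely unmethylated in pluripotent cells, reached at most 27.4% methylation. This was in Pou5f1 of 4F-iPSC replicate 2, where replicate 1 was at 15.3% and the other libraries were at 8.31% or less. Zfp42 reached 18.3% in 4F-iPSC replicate 2 and 10.3% or less elsewhere. These levels rested on 17 CpGs in Pou5f1, 7 in Zfp42, 3 in Dppa3, and 2 in Nanog. The promoter of Tdgf1, also looked up, had 0 CpGs to measure.

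The members were mostly unmethylated, and what methylation they carried was lowest in mESCs and highest in 4F-iPSCs. The mean level over the member CpGs was 12.6% ± 0.496 (SD, n = 2) in mESCs, where the replicates were at 12.3% and 12.98%. It was 15.3% ± 1.66 (SD, n = 2) for C-iPSCs, with replicates at 14.1% and 16.5%, and 18.5% ± 0.925 (SD, n = 2) in 4F-iPSCs, with replicates at 17.8% and 19.1%. The 3 pairs of libraries did not overlap. C-iPSCs were 2.68 points and 4F-iPSCs 5.84 points above mESCs, and 4F-iPSCs were 3.16 points above C-iPSCs. The differences that involve C-iPSCs depended on the library, since C-iPSCs were 1.41 points above mESCs without C-iPSC replicate 2, and 4F-iPSCs were 1.95 points above C-iPSCs without C-iPSC replicate 1. Each difference had a two-sided exact permutation p of 0.3333, which is the smallest that 2 libraries against 2 can give. Most members carried little methylation, since the median member CpG was at 1.72%, 1.99%, and 2.47% in the same order.

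Orphan islands stood between the other dense CpGs and the rest of the distal genome. CpGs within 5 kb of a start that met the same density minimum had mean levels of 2.44% ± 0.173, 2.65% ± 0.569, and 3.39% ± 1.07 in mESCs, C-iPSCs, and 4F-iPSCs, and sparse CpGs over 5 kb from a start had 46.9%, 62.0%, and 72.6% (SD over n = 2 libraries). In 4F-iPSCs the near-start CpGs were at 2.63% in replicate 1 and 4.15% in replicate 2. This spread within a cell type was larger than the difference of 0.743 points between 4F-iPSCs and C-iPSCs at these CpGs, whose libraries overlapped. The gap between orphan and near-start CpGs, taken within each library, was wider by 2.47 points in C-iPSCs and by 4.88 points in 4F-iPSCs than in mESCs, and by 2.42 points in 4F-iPSCs than in C-iPSCs (exact permutation p = 0.3333 each, the smallest possible). The first of these came to 1.56 points without mESC replicate 1 and to 1.60 points without C-iPSC replicate 2. Against sparse distal CpGs the difference of orphan islands had the other sign. The level of orphan islands minus that of sparse CpGs changed by −12.5 points from mESCs to C-iPSCs, by −19.9 points from mESCs to 4F-iPSCs, and by −7.46 points from C-iPSCs to 4F-iPSCs (exact permutation p = 0.3333 each), the last being −4.21 points without C-iPSC replicate 1. The near-start stretches were the denser ones, with a median of 31 CpGs per 300 bp against 20 in orphan islands, so these gaps were not taken at equal density. As ratios the classes lay closer together, with 4F-iPSCs at 1.46 times the mESC mean in orphan islands, 1.39 times at dense near-start CpGs, and 1.55 times at sparse distal CpGs.

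**Figure D1:**
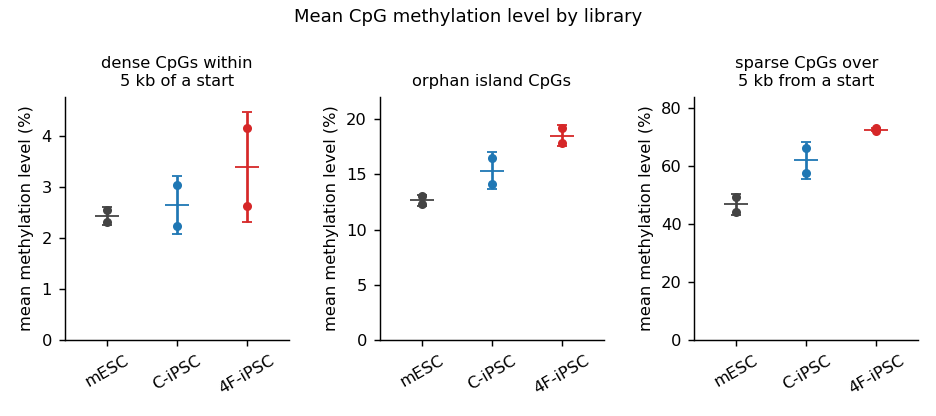
Mean methylation level (%) of dense CpGs within 5 kb of a start, of orphan island CpGs, and of sparse CpGs over 5 kb from a start. Points are libraries, bars the mean ± SD of 2 libraries, and each panel has its own axis from 0; orphan islands run from 12.6% in mESCs to 18.5% in 4F-iPSCs.

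Size separated the islands more than cell type did. Islands held 1 to 183 member CpGs, with a median of 9, and spanned 2 to 1405 bp. In islands of 1 to 4 CpGs the mean level was 31.2% (mESCs), 41.7% (C-iPSCs), and 50.7% (4F-iPSCs), and in those of 5 to 9 CpGs it was 32.3%, 39.8%, and 47.3%. Islands of 10 to 19 CpGs had 17.9%, 21.5%, and 26.0%. In these 3 size classes no library of one cell type fell within the range of another. In islands of 20 to 49 CpGs the levels were down to 4.53%, 4.96%, and 6.08%, and in the 40 islands of 50 or more to 2.13%, 2.34%, and 2.99%, close to the near-start level. In these 2 larger classes only the libraries of 4F-iPSCs and mESCs stayed apart, while C-iPSC libraries overlapped those of both other cell types. In islands of 50 or more CpGs they were barely apart, with 4F-iPSC replicates at 2.28% and 3.69% and mESC replicates at 2.24% and 2.01%. An island counts only CpGs that met the rule, so a small island may be the part of a longer stretch that RRBS covered.

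**Figure D2:**
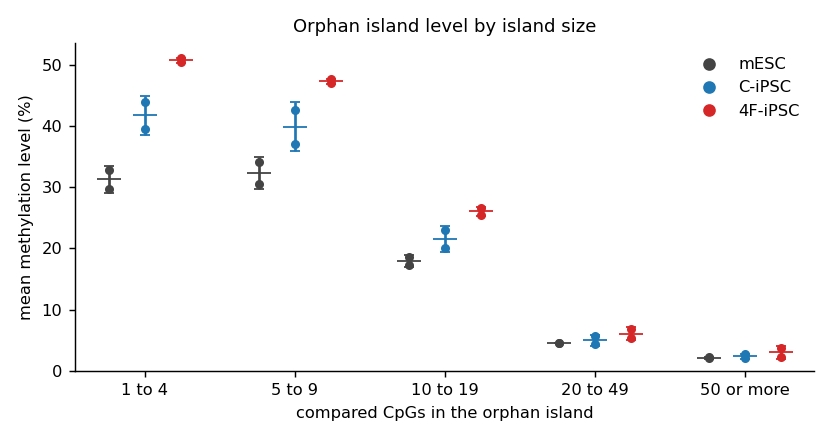
Mean methylation level (%) of orphan island CpGs by the number of compared CpGs in the island. Points are libraries and bars the mean ± SD of 2 libraries; levels fall from 50.7% to 2.99% in 4F-iPSCs and from 31.2% to 2.13% in mESCs.

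Levels fell with local density too, and large islands are also dense. CpGs with 10 to 14 others within 100 bp were at 20.3%, 25.0%, and 29.9% in mESCs, C-iPSCs, and 4F-iPSCs, those with 15 to 19 at 4.33%, 4.79%, and 6.18%, and those with 20 or more at 2.00%, 2.16%, and 2.68%. Only in the first of these classes did no cell types overlap. With 15 to 19 others C-iPSC libraries overlapped those of both other cell types, and with 20 or more every pair overlapped, with 4F-iPSC replicates at 2.02% and 3.34% and mESC replicates at 2.10% and 1.90%. CpGs with exactly 10 others were at 26.6%, 33.4%, and 40.0%, and distal CpGs with 9 others, just outside the rule, at 30.3%, 37.8%, and 45.2%. On the other boundary, members up to 5500 bp from a start were at 7.17%, 9.11%, and 11.5%, and CpGs of the same density minimum between 4500 bp and 5 kb at 4.53%, 5.75%, and 7.92%. 

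Methylated orphan islands were fewer and more graded than unmethylated ones. With low meaning under 30% and high from 80%, 834 of 1257 islands were low, 412 intermediate, and 11 high in mESCs. C-iPSCs had 753 low, 442 intermediate, and 62 high islands, and 4F-iPSCs 694, 317, and 246. The high class took 9 and 20 islands in the single mESC libraries, 50 and 98 in those of C-iPSCs, and 261 and 244 in those of 4F-iPSCs, without overlap between cell types. The most frequent pattern, in 680 islands or 54.1%, was to be low in all 3 cell types, and these held 12808 of the member CpGs. The next most frequent patterns were 177 islands intermediate in mESCs and C-iPSCs and high in 4F-iPSCs, 168 intermediate in all 3, 82 low in mESCs and intermediate in both iPSC types, 62 intermediate in 4F-iPSCs alone, and 50 intermediate in mESCs and high in both iPSC types. Only 10 were high throughout. Over all 1257 islands, the level over summed replicates rose from mESCs through C-iPSCs to 4F-iPSCs in 798 (63.5%), and mESCs were the highest in 128.

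**Figure D3:**
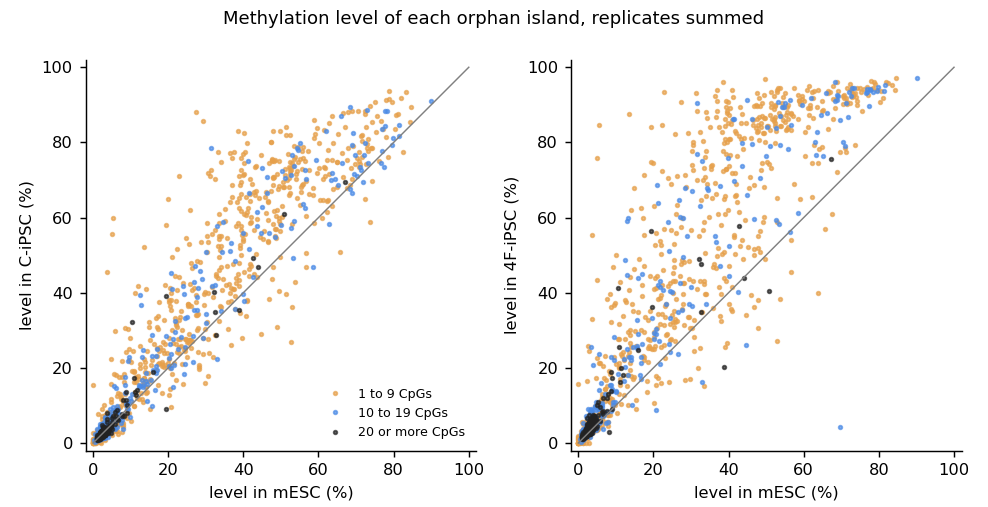
Methylation level (%) of each of the 1257 orphan islands in C-iPSCs (left) and 4F-iPSCs (right) against mESCs, replicates summed, with the line of equality. Islands of 20 or more CpGs gather near 0 on both axes, and 914 islands lie above the line on the left and 1096 on the right.

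The islands with and without methylation differed in where they lay and in what sequence they held. Of all islands, 637 were intergenic, 252 were in introns, 326 in coding exons, 24 in 3′ UTRs, 2 in 5′ UTRs, and 16 in exons of noncoding genes. Coding exons held 29.7% of member CpGs and 8.03% of sparse distal CpGs. Members in coding exons averaged 10.2%, 13.7%, and 17.7% in mESCs, C-iPSCs, and 4F-iPSCs, and intergenic members 14.5%, 16.8%, and 19.6%. Averaged by island, coding exons were at 20.3%, 28.4%, and 36.1% and intergenic islands at 24.5%, 30.0%, and 35.2%, so the order turned in 4F-iPSCs. Soft-masked sequence, which the reference writes in lower case as repetitive, held 2515 members with levels of 40.7%, 46.3%, and 53.6%. The 13900 members outside it were at 7.79%, 9.86%, and 12.3%, and their libraries too did not overlap between cell types. Of the 680 islands low in all cell types 6.62% were mostly soft-masked, and of the 246 high in 4F-iPSCs 56.1% were.

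Levels rose with distance from the nearest start. Members 5 to 10 kb away averaged 9.06%, 10.96%, and 13.6% for mESCs, C-iPSCs, and 4F-iPSCs, and members over 50 kb away 27.5%, 32.6%, and 37.9%. Across the 1257 islands, Spearman's rho of the level with distance was 0.28 in mESCs and 0.26 in 4F-iPSCs, with GC content −0.50 and −0.53, and with the soft-masked share 0.47 and 0.42. These features are linked to each other and to island size. The annotation mattered as well, since 112 islands (8.91%) had a RefSeq start within 1 kb although none of GENCODE within 5 kb. The 2471 members within 1 kb of such a start were at 4.23%, 5.11%, and 5.84%, while those over 5 kb from RefSeq starts too were at 15.1%, 18.3%, and 22.1%. The hexamer TGCCGC, searched on both strands of a 300 bp window at each island, was in 22.04% of orphan islands and in 32.4% of the dense stretches near starts. It was in 27.6% of the islands low in all cell types, in 11.4% of those intermediate in 4F-iPSCs, and in 21.1% of those high in 4F-iPSCs.

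Inside an island the middle was less methylated than the rim. In islands of at least 10 member CpGs, CpGs over 100 bp from the edge were at 3.34%, 3.62%, and 4.32% in mESCs, C-iPSCs, and 4F-iPSCs, where the replicates of 4F-iPSCs, at 3.59% and 5.04%, enclosed C-iPSC replicate 2, and those of C-iPSCs, at 3.15% and 4.09%, enclosed both of mESCs. CpGs within 100 bp of the edge were at 10.7%, 12.6%, and 15.4%. Outside, the level was 16.5%, 19.4%, and 23.1% in the first 100 bp and 23.0%, 30.3%, and 36.7% in the outermost window, which ended at 1 kb. The difference between 4F-iPSCs and mESCs was thus smallest in the middle and widest in the outermost window. Only large islands have CpGs over 100 bp from an edge, so size and position are mixed in the innermost class.

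**Figure D4:**
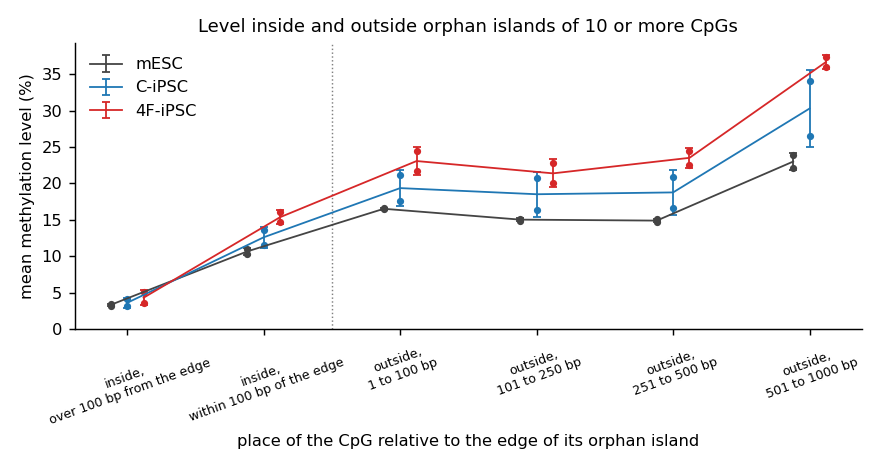
Mean methylation level (%) of CpGs inside and outside orphan islands of at least 10 member CpGs, by distance from the island edge (dotted line). Points are libraries and bars the mean ± SD of 2 libraries; in 4F-iPSCs the level goes from 4.32% inside to 36.7% in the outermost window.

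How many orphan islands separated C-iPSCs from mESCs one by one depended on the fit, with few called by quasi-binomial regression without a replicate block. A CpG was called strongly different when the levels differed by more than 33.3 percentage points with an unadjusted p under 0.05 by Fisher's exact test, two-sided, on reads summed over replicates. In C-iPSCs 171 member CpGs (1.04%), in 98 islands, were strongly hypermethylated against mESCs, where 2.83% of all compared CpGs were. Only 4 members (0.0244%) were strongly hypomethylated, in the islands nearest to Gm49292, AC132253.1, Gm37386, and Tjp1, against 0.0343% of all compared CpGs. Over the 2 libraries as replicates, quasi-binomial regression with limma-shrunken dispersion and Benjamini-Hochberg adjustment over all dense stretches called 3 islands (0.239%) higher in C-iPSCs, against 0.0633% of dense stretches. It called 0 lower, against 0.0492% of dense stretches. At an unadjusted p under 0.05 the same regression had 241 islands higher, against 3.84% of dense stretches, and 6 lower, against 0.218%. The count depended on how the spread between 2 replicates was modelled. Limma on log ratios called 108 higher, against 1.59% of dense stretches, and 3 lower, against 0.267%. With the replicate number as a block, the regression called 93 higher and 2 lower, with no share of dense stretches given. A dispersion prior that followed the reads of each stretch called 0 in either direction, and at an unadjusted p under 0.05 it had 342 higher, against 5.64%, and 18 lower, against 0.464%. The count depended on the libraries too, and moved when single libraries were left out, as given under the processing below. Where 1 library of a compared cell type is left, its spread is assumed to be that of the other cell type and of the prior over stretches.

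The Dpt island had mESC replicates at 52.0% and 58.2%, C-iPSC replicates at 77.6% and 79.4%, and 4F-iPSC replicates at 91.8% and 87.4%. The 3 cell types did not overlap. It was 24.3 points higher in C-iPSCs than in mESCs (adjusted p = 0.031, quasi-binomial regression), and this call was lost with the prior that followed the reads (adjusted p = 0.0851). The other 2 called islands had under 10 CpGs and were named after their values were seen. An island in an intron of Lmbrd1, a gene of lysosomal cobalamin export, at chr1:24721495-24721499 rose from 7.36% and 12.5% in mESCs to 31.4% and 29.2% in C-iPSCs. The intergenic island nearest to Gm10660 at chr8:67414315-67414396 rose from 34.1% and 43.0% to 71.9% and 79.0%. Both lie wholly in soft-masked sequence, and the Lmbrd1 island had 1787.5 reads per CpG in mESCs, far above the median island.

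Against mESCs, 4F-iPSCs had many hypermethylated orphan islands. Strongly hypermethylated members numbered 983 (5.99%), in 331 islands, against 14.1% of all compared CpGs, and 15 members (0.0914%) were strongly hypomethylated against 0.0333% of all. Of the 15, 12 were the CpGs of a single island, and the others lay in the islands nearest to Gm49292, Olig2, and Gm18159. Quasi-binomial regression called 367 islands (29.2%) higher, against 6.1% of all dense stretches, and 8 (0.636%) lower, against 0.148%. The called islands were small, with a median of 7 CpGs, and the median level was 43.4% in mESCs and 83.2% in 4F-iPSCs. Only 11 of the 367 had a RefSeq start within 1 kb. With the prior that followed the reads 504 islands were higher, against 8.04% of dense stretches, and 16 lower, against 0.225%.

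Among islands of at least 10 CpGs, the 3 largest called gains over mESCs were in Kcnh1, Ica1, and Chst13, the sequences of which are printed above. The Kcnh1 island, wholly in soft-masked sequence, was at 25.7% and 37.7% (mESCs), 77.7% and 80.1% (C-iPSCs), and 91.4% and 89.8% (4F-iPSCs). Both iPSC types were thus far above mESCs, and the gain in 4F-iPSCs was 59.0 points (adjusted p = 0.00105, quasi-binomial regression). Depth was low here, with 21.5 reads per CpG in mESCs, and the gain of 47.0 points in C-iPSCs did not pass (adjusted p = 0.1, quasi-binomial regression). Limma on log ratios called it (adjusted p = 6.63e-07). The regression also called it under the replicate block (adjusted p = 0.0308) and with at least 8 other CpGs (adjusted p = 0.0298). The Ica1 island stepped up from 18.2% and 24.6% through 38.0% and 51.4% to 71.3% and 66.5% in mESCs, C-iPSCs, and 4F-iPSCs. None of its libraries overlapped with those of another cell type, and 4F-iPSCs were 47.8 points above mESCs (adjusted p = 0.000297) and 23.4 points above C-iPSCs (adjusted p = 0.0174). The Chst13 island was at 11.9% and 14.5% (mESCs), 23.0% and 27.0% (C-iPSCs), and 54.7% and 65.6% (4F-iPSCs). Here mESCs and C-iPSCs were low and 4F-iPSCs alone intermediate, 46.6 points above mESCs (adjusted p = 0.00048).

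Between the 2 iPSC types, 4F-iPSCs were higher at most islands that differed. There were 151 strongly hypermethylated members (0.92%), against 1.24% of all compared CpGs, and 25 strongly hypomethylated ones (0.152%), against 0.0281% of all. Of these 25, 12 were in the same single island as above and 5 in the island near Gm13804. Quasi-binomial regression called 90 islands (7.16%) higher in 4F-iPSCs, against 1.38% of dense stretches, and 3 (0.239%) lower, against 0.0703%. The prior that followed the reads called 342 higher, against 5.03%, and 15 lower, against 0.253%. Leaving out C-iPSC replicate 2, which was the more methylated of its pair, the regression called 243 higher, against 4.53% of dense stretches, with the spread of the lone C-iPSC library assumed to be that of 4F-iPSCs and of the prior. The comparisons with mESCs and the one between iPSC types share libraries, so their counts are not independent.

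Among islands of at least 10 CpGs, the largest called gain of 4F-iPSCs over C-iPSCs was in the intergenic island nearest to Slc19a2, a thiamine transporter gene, at chr1:164228299-164228453. It was at 26.7% and 38.0% (mESCs), 38.2% and 44.6% (C-iPSCs), and 78.6% and 75.5% (4F-iPSCs). mESCs and C-iPSCs nearly met, and 4F-iPSCs were 35.2 points above C-iPSCs (adjusted p = 0.000578, quasi-binomial regression). In Chst13 the difference was 35.1 points (adjusted p = 0.00202), although with at least 15 other CpGs required per member, which kept fewer of its CpGs, the call was lost (adjusted p = 0.512) at a difference of 33.1 points. Zfp30 differed in shape. Its island was at 21.5% and 17.8% (mESCs), 6.57% and 11.6% (C-iPSCs), and 30.2% and 41.7% (4F-iPSCs). C-iPSC libraries were below those of mESCs and 4F-iPSC libraries above, with no overlap, and the 2 iPSC types were 27.4 points apart (adjusted p = 0.00408). The difference of −10.6 points between C-iPSCs and mESCs did not pass (adjusted p = 0.245), and that of 16.8 points between 4F-iPSCs and mESCs did (adjusted p = 0.0273) but not under the replicate block (adjusted p = 0.0587). With at least 15 others required, the iPSC types were 37.9 points apart and the call was lost (adjusted p = 0.52).

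Islands that were less methylated in 4F-iPSCs were few and mostly in soft-masked sequence. Of the 8 called lower than mESCs, 7 were soft-masked over 50% to 100% of their CpGs, and the differences of these 7 lay between −18.7 and −12.9 points. Of all orphan islands 28.9%, and of those called higher in 4F-iPSCs than in mESCs 40.6%, were soft-masked over most of their CpGs. The intronic island of Zswim2, which encodes a zinc finger protein, at chr2:83930433-83930774 was at 35.6% and 44.2% (mESCs), 36.1% and 34.4% (C-iPSCs), and 19.8% and 20.6% (4F-iPSCs). mESCs and C-iPSCs overlapped, and 4F-iPSCs were 15.2 points below C-iPSCs (adjusted p = 0.0055, quasi-binomial regression), a call that limma on log ratios did not make (adjusted p = 0.175). With at least 15 others required the difference was −21.5 points and was not called either (adjusted p = 0.993). The island nearest to Gm13804 at chr2:98389616-98389876 was at 43.0% and 47.3% (mESCs), 53.1% and 57.9% (C-iPSCs), and 28.4% and 23.9% (4F-iPSCs). The cell types did not overlap, and the 2 iPSC types lay on opposite sides of mESCs. By quasi-binomial regression 4F-iPSCs were 29.8 points below C-iPSCs (adjusted p = 0.00706) and 18.5 points below mESCs (adjusted p = 0.00645). The latter difference was −16.2 points without mESC replicate 1, where the lone mESC library has no spread of its own to test against. The 11.2 points of C-iPSCs over mESCs did not pass (adjusted p = 1.0). Over all orphan islands, 7 (0.557%) had C-iPSC libraries above and 4F-iPSC libraries below those of mESCs, against 0.105% of all dense stretches, and 14 (1.11%) had the reverse, as Zfp30 did, against 0.942%.

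**Figure D5:**
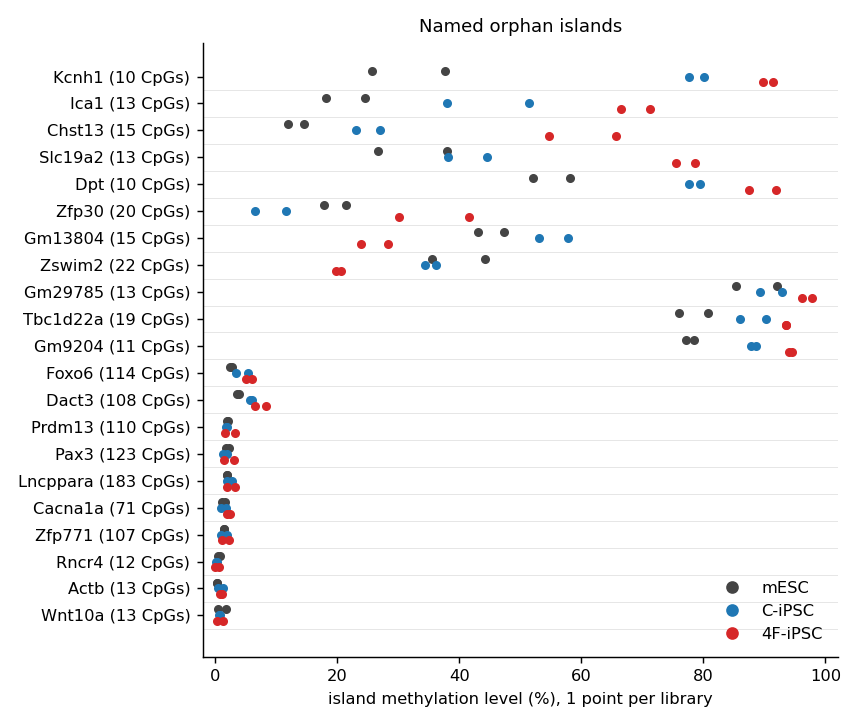
Methylation level (%) of named orphan islands, with 1 point per library and the number of compared CpGs in brackets; islands between genes carry the name of the gene with the nearest start. Large islands such as Lncppara (183 CpGs) lie near 0 in all libraries.

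The 5 islands with the most CpGs were at 8.30% or less in every library. The largest of all had 183 CpGs in an intron of the noncoding gene Lncppara at chr15:85670567-85671971 and was between 1.87% and 3.24%. One of 123 CpGs at chr1:78216592-78217755, 19458 bp from the start of Pax3, a transcription factor of neural crest and muscle, was between 1.35% and 3.15%, although a RefSeq start of Gm2102 is 516 bp away. The coding island of Prdm13, a zinc finger regulator of neurons, at chr4:21678679-21679797 held 110 CpGs at 1.67% to 3.25%. None of these 3 islands was called in any comparison. Small differences were called in 2 large coding islands. Foxo6, which encodes a forkhead factor, had 114 CpGs at chr4:120267950-120269160, 611 bp from a RefSeq start of Gm52678, that were at 2.48% and 2.84% (mESCs), 3.48% and 5.36% (C-iPSCs), and 5.04% and 6.002% (4F-iPSCs). Its gain of 2.81 points in 4F-iPSCs (adjusted p = 0.00282) was lost with the prior that followed the reads (adjusted p = 0.0522) and with limma (adjusted p = 0.107). Dact3, an antagonist of Wnt signalling, had 108 CpGs at chr7:16885119-16886061 at 3.97% and 3.54% (mESCs), 5.65% and 5.96% (C-iPSCs), and 6.52% and 8.30% (4F-iPSCs). The cell types did not overlap, and the gain of 3.58 points over mESCs (adjusted p = 0.00498) was lost with limma (adjusted p = 0.124).

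At the upper end of the range, 3 islands of at least 10 CpGs were the most methylated over the cell types. The intergenic island nearest to Gm29785 at chr9:12138256-12138356 was at 85.3% and 92.1% (mESCs), 89.3% and 92.9% (C-iPSCs), and 96.2% and 97.8% (4F-iPSCs). The intronic island of Tbc1d22a, a gene of the family that regulates Rab GTPases, at chr15:86223495-86223746 was between 76.1% and 93.6%, and the one nearest to Gm9204 at chr8:128557524-128557615 between 77.1% and 94.5%. In each, 4F-iPSC libraries were the highest and mESC libraries did not reach them. By quasi-binomial regression 4F-iPSCs were called above mESCs in Tbc1d22a by 15.2 points (adjusted p = 0.00105) and near Gm9204 by 16.6 points (adjusted p = 0.000395). The 7.09 points near Gm29785 did not pass (adjusted p = 0.0635). Limma on log ratios called them (adjusted p = 0.00223). The regression also called them with the prior that followed the reads (adjusted p = 0.00527) and with at least 8 other CpGs (adjusted p = 0.0257). The other alternatives computed for this island with all libraries did not. Among islands of at least 10 CpGs, the least methylated were the one nearest to the retinal noncoding gene Rncr4, at 0.623%, 0.258%, and 0.28% for mESCs, C-iPSCs, and 4F-iPSCs over summed replicates, the one near Actb printed above, at 0.37%, 0.819%, and 0.98%, and a coding island of the Wnt ligand gene Wnt10a at chr1:74803229-74803323, at 1.296%, 0.685%, and 0.784%. Between cell types none of these 3 islands was called.

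Islands in or nearest to developmental transcription factor genes were mostly unmethylated. Of 39 such islands at 31 genes, 36 (mESCs), 35 (C-iPSCs), and 34 (4F-iPSCs) were low. Their median level was 2.75%, 3.25%, and 3.59%, where all orphan islands had 13%, 17.7%, and 22.9%, and their median size was 15.0 CpGs against 9.0. Quasi-binomial regression called 6 of the 39 higher in 4F-iPSCs than in mESCs and none lower, against 367 and 8 of all 1257. In the coding island of Sox5, a factor of cartilage and neural development, at chr6:143833359-143833513 the level went from 53.6% and 62.7% in mESCs through 69.6% and 75.5% in C-iPSCs to 92.1% and 90.7% in 4F-iPSCs (adjusted p = 0.000338 for 4F-iPSCs against mESCs). An island of 5 CpGs in a coding exon of Glis1, a Krüppel-like zinc finger gene, at chr4:107568315-107568385 went from 43.4% and 65.2% through 81.3% and 88.2% to 92.6% and 88.7% (adjusted p = 0.00649). The other called ones were a single CpG in an intron of Glis1, a single CpG in a coding exon of Foxa3, and the islands of Foxo6 and Meis1. In Meis1, a homeobox gene, the gain was 4.66 points (adjusted p = 0.0439).

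Ion channel genes had 14 islands with median levels of 22.04%, 37.4%, and 55.7%, again in the order mESCs, C-iPSCs, 4F-iPSCs. In 4F-iPSCs 5 of the 14 were higher than in mESCs and none lower, against 29.2% and 0.636% of all orphan islands, and the 5 were those of Kcnh1, Cacna1g, Cacna1i, Kcnk15, and Kcns1, of which all but the first are in coding exons. The coding island of Kcns1, a modifier of voltage-gated potassium channels, at chr2:164164627-164164736 was at 48.5% and 55.1% (mESCs), 69.4% and 74.6% (C-iPSCs), and 83.2% and 84.9% (4F-iPSCs) (adjusted p = 0.000297, quasi-binomial regression). In contrast, the 71 CpGs in a coding exon of Cacna1a, the gene of a neuronal calcium channel, at chr8:84559195-84559704 were between 1.03% and 2.43% in every library. Zinc finger genes had 23 islands at 20 genes with median levels of 4.64%, 3.58%, and 7.39%, and 7 of the 23 were higher in 4F-iPSCs than in mESCs and none lower, a share near that of all orphan islands. Zfp64 at chr2:168893990-168894238 was at 14.1% and 18.5% (mESCs), 24.7% and 32.9% (C-iPSCs), and 45.4% and 42.2% (4F-iPSCs) (adjusted p = 0.000514). Zfp444 at chr7:6189622-6189696 was at 5.92% and 2.05%, 3.18% and 3.29%, and 16.8% and 35.0%, so that its 4F-iPSC replicates differed more from each other than C-iPSCs from mESCs. Its difference of 22.004 points between 4F-iPSCs and mESCs was called (adjusted p = 0.0363). The largest zinc finger island, 107 coding CpGs of Zfp771 at chr7:127253860-127254634, was between 0.952% and 2.27%.

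Of 10 imprinted clusters searched, the Kcnq1ot1-Cdkn1c cluster alone contained an orphan island. The number expected from the length of the clusters was not computed, so this count shows no depletion. The island, of 25 CpGs, was nearest to Gm27901 at chr7:143437924-143438118 and was between 1.83% and 3.96% in all libraries. By nearest gene, imprinted genes had 2 islands, near Dlk1 and in the 3′ UTR of H13, which encodes a signal peptide peptidase, and both were low in all cell types. The H13 island, 22 CpGs at chr2:152707629-152707837, was between 0.725% and 1.98%. Collagen and laminin genes had 1 island, of 4 CpGs in a coding exon of the laminin gene Lama5 at chr2:180192181-180192206, which rose from 52.5% and 65.5% in mESCs through 72.1% and 78.5% in C-iPSCs to 88.6% and 87.3% in 4F-iPSCs (adjusted p = 0.00924 for 4F-iPSCs against mESCs). Clustered protocadherin genes had 0. Nothing in these lists was tested as a group, and their counts stand beside those of all islands as a description.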

How the data were processed

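The authors cut DNA with MspI, aligned read pairs to mm10 with BSMAP 2.90, and called CpGs with MOABS. For each of 6 libraries they deposited counts of all and of methylated reads per CpG, by strand and together, and the methylated fraction. The deposited fraction was checked against the counts and matched them in every row, and all values here came from the counts, without normalization. The members and gene lists were chosen with earlier results of these data known. Starts were those of the comprehensive GENCODE annotation of GRCm38, and sequences came from RefSeq's GRCm38. An island's level is the mean of its CpG levels. Island tests used quasi-binomial regression on reads summed per library and stretch. The dispersion was shrunken with limma 3.58.1 (R 4.3.3) toward that of stretches at intermediate levels, was kept at 1 or more, and p-values were adjusted by Benjamini-Hochberg over all dense stretches. Strong CpG calls used the study's difference threshold without adjustment. Means were compared over libraries by two-sided exact permutation. PCR reads that carry no molecular identifiers need not come from separate molecules. The tests were run on simulated data first. Islands of at least 10 CpGs were named by size, by the 3 largest called differences in each direction, by mean level, by imprinted cluster, and by gene list, under the host gene or the nearest start. Other names were chosen after their values were seen. Of the islands so named, 1 is not reported here and enters only the counts. Sex chromosomes were left out. The alternatives varied the read minimum, density, distance, annotation, grouping, masking, depth, test, and libraries.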

Additional observations from a re-analysis of the deposited data

Results flagged for a closer look

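In 2 of the islands described the C-iPSC and 4F-iPSC libraries lay on opposite sides of the mESC libraries. The island near Gm13804 was higher in both C-iPSC libraries and lower in both 4F-iPSC libraries than in mESCs, and 4F-iPSCs minus C-iPSCs came to −29.8 points (adjusted p = 0.00706, quasi-binomial regression), while the difference of C-iPSCs from mESCs did not pass (adjusted p = 1.0). The Zfp30 island had the reverse pattern, with 27.4 points (adjusted p = 0.00408), and here too C-iPSCs and mESCs were not called apart (adjusted p = 0.245). The opposite sides themselves were not tested.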

How the results depend on the processing

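Of the summary values computed under alternatives, 231 kept their direction and moved by less than the spread between replicates (a count or share by at most 1.5 times), 70 moved further, and no value of a named island that was called reversed. C-iPSCs and 4F-iPSCs remained above mESCs in mean level under each. Those added after the data were seen were the basic annotation, RefSeq starts, crossed numbers, and the prior that followed the reads. Unless a share of all dense stretches is printed with them, shares of called islands under alternatives describe orphan islands only.

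With at least 8 other CpGs there were 27322 members in 2649 islands, mean differences of 5.07 points (C-iPSCs over mESCs), 10.4 points (4F-iPSCs over mESCs), and 5.30 points (between iPSC types), strongly different members of 2.78%, 12.5%, and 1.95%, and called islands of 3.74% and 47.1% against mESCs. With at least 15 there were 7335 members in 352 islands, differences of 0.307, 1.26, and 0.950 points, strongly different members of 0%, 0.218%, and 0.0545%, called islands of 0%, 7.95%, and 0.852%, and low islands of 94.3% (C-iPSCs) and 92.6% (4F-iPSCs). Over 2 kb from a start there were 27035 members in 1912 islands, over 10 kb 10488 members, and with the basic annotation 24978. The difference of 4F-iPSCs from mESCs was 7.03 points over 5 kb from RefSeq starts, 6.92 with 5 reads, 4.50 outside soft-masked sequence, and 7.64 over pooled reads, where 4F-iPSCs and C-iPSCs were 5.20 points apart.

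A difference threshold of 0.2 gave strongly different members of 5.43%, 12.9%, and 5.32%, and one of 0.5 gave 0.158%, 1.37%, and 0.140%. Outside soft-masked sequence they were 0.640% for C-iPSCs against mESCs and 0.554% between iPSC types, and with 5 reads 1.67% for the former. Called islands that also passed the difference threshold were 0.0796%, 12.3%, and 0.398%. For C-iPSCs against mESCs, called islands were 0.530% with 5 reads, 2.46% with 20 reads, 0.0816% grouped within 1000 bp, 4.87% among islands of at least 5 CpGs, 8.83% with limma, 0.106% outside soft-masked sequence, 0.119% over 10 kb away, and 0% with the prior that followed the reads. Between iPSC types they were 12.7% among islands of at least 5 CpGs, 14.6% with limma, 3.93% outside soft-masked sequence, and 28.4% with the prior that followed the reads. The cause was not tested.

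Leaving out one library at a time, where a lone library is assumed to vary like the other cell type compared, gave 0.168% to 6.21% of islands called for C-iPSCs against mESCs (the highest without mESC replicate 2) and 5.26% to 20.8% between iPSC types (the highest without C-iPSC replicate 2). Strongly different members then ranged from 0.452% to 1.97% and from 0.925% to 1.75%. 4F-iPSCs were 4.79 to 6.29 points above mESCs, C-iPSCs 1.41 to 3.64 points above mESCs, and 4F-iPSCs 1.95 to 4.22 points above C-iPSCs, with the extremes of the last 2 at the C-iPSC replicates. The gap to near-start CpGs differed by 3.76 to 5.24 points between 4F-iPSCs and mESCs and by 1.56 to 3.04 points between C-iPSCs and mESCs.

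Nothing in the labels ties replicates of the same number together, and their deviations from the cell type means correlated at 0.0357, −0.199, and 0.123 across islands. These correlations cannot show a shift shared by all islands, and replicate 2 was the higher on average in each cell type. The replicate block called 7.56% of islands between C-iPSCs and mESCs, 22.7% between 4F-iPSCs and mESCs, and 12.7% between iPSC types, and left strongly different members at 1.07%, 6.09%, and 1.08%. No share of all dense stretches is given for the block, so its called shares describe orphan islands only. With crossed numbers, 384 islands were higher and 10 lower in 4F-iPSCs than in mESCs, again with no share of all dense stretches given.

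Among the named islands, 1175 values under alternatives stayed called or stayed uncalled, 17 lost a call, and 29 gained one. Many of the 1175 had no call to lose, and those over pooled reads took over the p-values of the main regression, so the number does not measure stability. Levels under the share of 1 read in the depth of a CpG could not be resolved, and 2 libraries per cell type limit every test.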
